A study of Homo sapiens with 8 samples.

Results

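Many human genes carry more than 1 promoter, and the promoter that a cell uses sets the first exon and often the first amino acids of the protein. In U2OS cells, 1788 of the 30268 autosomal regions marked by H3K4me3 lay at such alternative promoters, and they belonged to 1502 of 19111 protein-coding genes (7.86%). An alternative promoter was defined here as an H3K4me3 region on chromosomes 1 to 22 that came within 1 kb of an annotated transcript 5′ end of a protein-coding gene and lay more than 5 kb from the canonical 5′ end of every protein-coding gene. The canonical 5′ end was that of the MANE Select transcript, the agreed reference transcript of a gene, or of the annotated canonical transcript where there is none. Regions were the union of the peaks of 6 libraries with touching peaks merged, so the choice used the presence of a peak in any library and not the genotype. A set of 11845 regions within 1 kb of a canonical 5′ end served for comparison.

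H3K4me3 ChIP-seq had been carried out on U2OS, a human osteosarcoma line that keeps its telomeres without telomerase, in 3 wild-type (WT) clones and 3 clones knocked out (KO) for ZBTB48, a zinc finger protein found at telomeres and at promoters. Each library came from a different clone, and WT and KO clones alike had been kept with interferon gamma (IFNγ) at 250 U/ml for 24 h, so the data hold no untreated cells and every contrast is between genotypes under IFNγ. The other 2 of the 8 samples were WT inputs, which were not used here. The KO clones were established earlier, and differences between single clones cannot be told apart from differences between genotypes beyond what 3 clones of each show.

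H3K4me3 is placed on the nucleosomes around active transcription start sites by the SET1 and MLL methyltransferase complexes, and promoters rich in CpG dinucleotides attract these complexes through CpG-binding subunits. A peak at an internal or distant 5′ end therefore marks a start site that may be in use, without measuring how much RNA is made from it. Genes encoding transcription factors, cytoskeletal scaffolds and signalling enzymes are textbook cases in which separate promoters yield long and short isoforms.

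The stretches of 150 bases just upstream of 4 alternative 5′ ends are shown first, because they belong to genes in which only the alternative promoter was marked and because they span the range from CpG-poor to CpG-rich. They are reference sequence from GRCh38, printed 5′ to 3′ on the gene's own strand, with any searched motif in capitals. RARA (chr17:40322841-40322990, plus strand) holds 1 CpG and the E-box CACGTG. IQCJ-SCHIP1 (chr3:159763563-159763712, plus strand) holds 18 CpGs and the GC-box GGGCGG. CTBP2 (chr10:125160146-125160295, minus strand) holds 19 CpGs and a GC-box on the other strand. PDGFC (chr4:156773718-156773867, minus strand) holds 1 CpG and the box CCAAT.
RARA: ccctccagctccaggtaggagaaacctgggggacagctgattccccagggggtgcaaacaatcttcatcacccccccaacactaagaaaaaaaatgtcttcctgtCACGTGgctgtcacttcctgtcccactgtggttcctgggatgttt
IQCJ-SCHIP1: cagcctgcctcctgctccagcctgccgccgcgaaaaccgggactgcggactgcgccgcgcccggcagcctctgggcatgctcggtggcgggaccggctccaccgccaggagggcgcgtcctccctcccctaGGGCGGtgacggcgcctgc
CTBP2: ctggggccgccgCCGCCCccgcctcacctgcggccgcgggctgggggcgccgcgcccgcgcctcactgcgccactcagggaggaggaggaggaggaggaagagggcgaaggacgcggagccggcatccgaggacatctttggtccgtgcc
PDGFC: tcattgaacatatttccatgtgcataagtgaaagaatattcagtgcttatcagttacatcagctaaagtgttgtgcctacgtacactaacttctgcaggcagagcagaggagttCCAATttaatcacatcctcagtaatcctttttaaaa

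A further 3 stretches belong to alternative promoters called in all libraries of one genotype and in no library of the other. AHDC1 (chr1:27568261-27568410, minus strand) and NHSL1 (chr6:138572541-138572690, minus strand) were called in WT alone, and KCNIP2 (chr10:101830439-101830588, minus strand) in KO alone. AHDC1 holds 2 CpGs and the palindrome TTCNNNGAA, NHSL1 holds 8 CpGs and CCAAT, and KCNIP2 holds 8 CpGs and none of the motifs searched.
AHDC1: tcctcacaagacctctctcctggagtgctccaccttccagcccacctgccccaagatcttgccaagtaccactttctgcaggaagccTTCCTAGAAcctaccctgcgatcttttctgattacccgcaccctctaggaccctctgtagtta
NHSL1: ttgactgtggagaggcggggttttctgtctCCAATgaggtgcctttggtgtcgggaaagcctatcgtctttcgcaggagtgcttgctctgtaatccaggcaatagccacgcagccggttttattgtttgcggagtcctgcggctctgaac
KCNIP2: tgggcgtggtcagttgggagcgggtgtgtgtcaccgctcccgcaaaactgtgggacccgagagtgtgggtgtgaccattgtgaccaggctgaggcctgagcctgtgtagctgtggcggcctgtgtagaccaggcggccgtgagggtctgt

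The 6 peak lists differed in kind, and the split ran through the WT group. Fold enrichment, the ratio of ChIP signal over local background, had a median over peaks of 13.6 and 14.1 in the first pair of WT replicates. In WT replicate 3 and KO replicates 1, 2 and 3 it was 4.18, 4.31, 4.59 and 4.63. Peaks were wider in the first kind as well. The part of this in each width difference between genotypes was not tested, so such differences are given again with WT replicate 3 as the only WT library, as values with no test. The lists hold no read counts, so the depth of a library is unknown here, and a promoter with no peak may still carry the mark below the calling threshold. Canonical promoters of 6 of 7 osteoblast or mesenchymal marker genes (RUNX2, COL1A1, SPARC, VIM, FN1 and CDH2, but not COL1A2) were called in all 6 libraries. Among markers of other cell types, PTPRC, CD3E, KRT5 and ALB were called in none and EPCAM and SYT1 in all 6.

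Most alternative promoters lay inside the gene. The nearest alternative 5′ end fell in an intron of the canonical transcript for 1076 regions (60.2%), upstream of the canonical 5′ end for 487 (27.2%), in an exon for 204 (11.4%) and downstream for 21. The distance between the alternative and the canonical 5′ end had a median of 44.1 kb and quartiles of 17.1 and 112.7 kb, and 503 regions (28.1%) lay more than 100 kb away. Of the 1502 genes, 1268 had 1 alternative promoter region, 184 had 2, 37 had 3 and 13 had 4 or more. The highest number was 5, in SEPTIN9, a cytoskeletal GTPase, in VGLL4, a cofactor of TEAD factors, and in ZBTB20, a zinc finger repressor. VGLL4 was named after its count was seen.

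The isoforms that start at these promoters often differ in protein as well as in first exon. Over the 1802 pairs of a region and a gene, 752 (41.7%) had transcripts that begin translation at a start codon other than the canonical one, 295 (16.4%) had transcripts that keep the canonical start codon, 60 had both, and 695 (38.6%) had no coding transcript with a start codon. The 5′ end of a long non-coding RNA lay within 1 kb of 224 regions (12.5%), and for these the mark cannot be assigned to one transcript or the other. Some regions named below are among them, such as those described for MKLN1, SLC3A2, HOXA3, GNAS, RUNX2 and LIMA1. Only a minority of annotated alternative starts carried the mark. Among 48371 annotated 5′ ends more than 5 kb from a canonical end, 4736 (9.79%) had a peak within 1 kb in at least 1 library and 3026 (6.26%) in all 6, against 13453 (70.4%) and 12573 (65.8%) of the 19111 canonical ends.

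Alternative promoters were called less uniformly than canonical ones. Of the 1788, 1057 were called in all 6 libraries (59.1%), beside 57.1% of all autosomal regions and 94.1% of the canonical promoter regions. Another 298 were called in a single library (16.7%, beside 19.3% of all regions and 1.76% of canonical regions). KO replicate 1 alone called 76 of these, WT replicate 3 called 67 and KO replicate 3 called 64, while WT replicates 1 and 2 and KO replicate 2 called 29, 40 and 22. The numbers called in 2, 3, 4 and 5 libraries were 115, 98, 98 and 122. A call refers to the merged region, and in 96.5 to 98.9% of the calls of a library the peak itself came within 1 kb of an alternative 5′ end, which held in all 6 libraries for 1013 of the 1057. Calls in all 6 were more frequent for regions upstream of the canonical 5′ end (74.9% of 487) than in introns (54.8% of 1076) or exons (44.6% of 204). They were also more frequent where a transcript from the alternative end is coding (69.6% of 1099) than where none is (42.4% of 689). By distance, the shares called in all 6 were 58.0%, 59.2% and 60.0% at up to 20 kb, at 20 to 100 kb and beyond 100 kb. At the edge of the definition, 45 of 82 regions at 4 to 5 kb from a canonical end and 50 of 74 regions at 5 to 6 kb were called in all 6.

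The number of alternative promoters called did not separate the genotypes. WT replicates 1, 2 and 3 called 1333, 1328 and 1412, and KO replicates 1, 2 and 3 called 1469, 1306 and 1318. The groups overlapped, with means of 1358 ± 47.1 in WT and 1364 ± 90.8 in KO (SD, n = 3 each), and the difference of -6.67 had p = 1 in a two-sided exact permutation test, whose smallest possible p with 3 against 3 is 0.1. WT replicate 3 called 47.7 more than the mean of the KO libraries. As shares, 74.6, 74.3 and 79.0% of the 1788 were called in the WT libraries and 82.2, 73.0 and 73.7% in the KO libraries. The canonical regions were called at 96.2 to 97.8% in every library. The share of alternative promoters minus that of canonical regions was therefore -22.5, -22.3 and -18.5 percentage points in WT and -15.6, -23.1 and -22.6 in KO, and it did not separate the genotypes either (exact permutation p = 1). With calls limited to regions at least 50% covered, the WT minus KO difference in this share became -17.1 points and the genotypes separated (exact permutation p = 0.1). That rule takes 50% of the merged region, which the wider lists largely set, so it is a threshold on width. Merged regions had a median of 1765 bp at alternative and 3430 bp at canonical promoters. This separation is therefore not independent of the width differences below.

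Alternative promoters carried narrower domains than canonical ones in every library. Their median width was 2039, 2108 and 1437.5 bp in WT replicates 1, 2 and 3 and 1399, 1263 and 1170 bp in KO replicates 1, 2 and 3. The canonical regions had medians of 3253, 3208 and 1948 bp in WT and 1901, 1743 and 1646 bp in KO. Alternative promoters thus reached 62.7 and 65.7% of the canonical width in WT replicates 1 and 2 and 71.1 to 73.8% in the other 4 libraries. The difference averaged -713.75 bp and had the same sign in 6 of 6 libraries (exact sign-flip permutation p = 0.03125, the smallest that 6 libraries can give, and 0.109 after Benjamini-Hochberg adjustment over 7 tests, which does not pass 0.05). In WT replicate 3 and the KO libraries alone the difference lay between -510.5 and -476 bp. Distances were taken from region edges, so a wide region near a canonical 5′ end is more readily counted as canonical or left out. Width is therefore not independent of the choice of regions, and the part of this in the difference was not tested.

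Their peaks also ranked lower within each list. Ranked by fold enrichment from 0 to 100 within a list, the alternative promoters had a median percentile of 40.7, 40.3 and 52.0 in WT and 53.5, 48.5 and 45.1 in KO. The gap to canonical regions was -30.8 and -31.7 in WT replicates 1 and 2 and only -1.49, -1.16, -8.49 and -14.7 in WT replicate 3 and the KO libraries, with the same sign in 6 of 6 (exact sign-flip permutation p = 0.03125, adjusted 0.109). The size of this gap thus rested on WT replicates 1 and 2. With stricter peak thresholds, equal peak numbers or protein-coding transcripts only, the gap no longer had the same sign in all 6 libraries.

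The WT domains were wider than the KO domains, in lists that also differed in kind. The median widths above did not overlap between the genotypes, with means of 1861.5 ± 369 bp in WT and 1277 ± 115 bp in KO (SD, n = 3 each), a difference of 584 bp (exact permutation p = 0.1, the smallest possible, and 0.233 adjusted over 7 tests). WT replicate 3, the WT library of the same kind as the KO libraries, exceeded the KO mean by 160 bp. The total length under peaks was 3.07, 3.05 and 2.15 Mb in WT and 2.19, 1.77 and 1.67 Mb in KO, where KO replicate 1 overlapped the WT range (difference 0.881 Mb, exact permutation p = 0.2, adjusted 0.35). Every WT width lay above every KO width at 436 alternative promoters (24.4%, beside 27.1% of all autosomal regions and 51.7% of canonical regions), and every KO width above every WT width at 18 (1.01%, beside 0.624% and 0.0929%). Without WT replicate 3 the first count was 876, and without KO replicate 1 it was 831. No share over all regions is given for these omissions, so these counts are not compared with the background. WT replicate 3 alone exceeded all 3 KO widths at 692 (38.7%, beside 41.7% of all regions) and lay below all 3 at 94 (5.26%, beside 3.73%). Its lead over the widest KO library was at least 500 bp at 118 (6.6%, beside 6.42% of all regions).

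**Figure D1:**
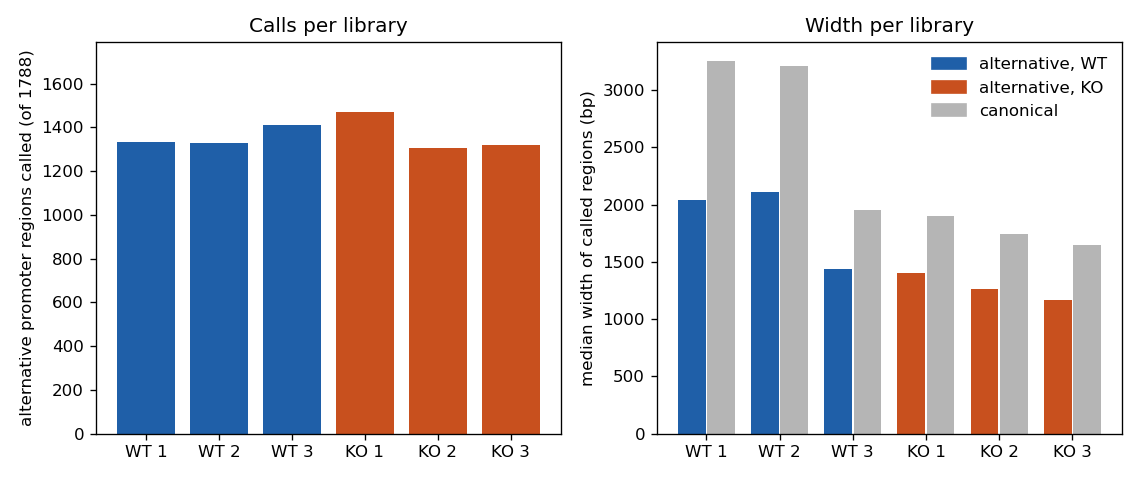
Left, the number of alternative promoter regions called in each library (y axis, up to 1788); right, the median width in bp of the called alternative promoters beside that of the canonical promoter regions in the same library. WT libraries are blue and KO libraries orange; calls range from 1306 to 1469 with no split by genotype, while alternative promoters are narrower than canonical ones in all 6 libraries.

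In most genes the alternative promoter accompanied a marked canonical promoter, and in the remainder it mostly stood alone. Of 952 genes with an alternative promoter called in all 6 libraries, 674 (70.8%) had their canonical 5′ end called in all 6 as well, 51 in 1 to 5 libraries, and 227 (23.8%) in none. Over all 19111 canonical 5′ ends, 12573 (65.8%) were called in all 6 libraries and 5658 in none. The shares among the 952 genes are therefore a description and not a trait particular to them. Of these 227 genes, 222 have a MANE Select transcript, and 194 had no peak of any library within 5 kb of the canonical 5′ end. In 216 of the 227 the peaks of all 6 libraries came within 1 kb of an alternative 5′ end. Counted library by library, genes with only the alternative promoter marked numbered 303, 302 and 314 in WT and 340, 302 and 311 in KO, and the difference of -11.3 lay within the spread (exact permutation p = 0.7, adjusted 0.98). With an equal number of peaks per list the difference was -11 and the genotypes did not overlap (exact permutation p = 0.1, the smallest possible).

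The genes marked only at the alternative promoter included nuclear receptors and developmental transcription factors. RARA, the retinoic acid receptor alpha, had 2 such domains and no peak at its canonical end in any library. The domain 9.11 kb downstream of the canonical end (chr17:40315392-40324231) was 8840, 8179 and 4030 bp wide in WT and 5774, 2309 and 3086 bp in KO, and the genotypes overlapped. The domain 33.2 kb downstream measured 7755, 6264 and 4926 bp in WT and 5639, 2992 and 3300 bp in KO, where KO replicate 1 again exceeded WT replicate 3. The sequence printed for RARA lies in the first domain, before another of its annotated 5′ ends than the one from which the distance was taken.

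NR5A2, another nuclear receptor, was marked 15.1 kb inside the gene, with 4713, 5310 and 2138 bp in WT and 2042, 1685 and 1628 bp in KO. The groups did not overlap, but WT replicate 3 stood only 353 bp above the KO mean. TBX2, a T-box repressor, had a domain of 6523, 7016 and 3340 bp in WT and 5196, 2667 and 2795 bp in KO at an end within its own exons, 8.88 kb from the canonical end. HOXC6, a homeobox factor, had 6662, 5808 and 3729 bp in WT and 3982, 3731 and 3825 bp in KO at a region that is shared with HOXC4. CTBP2, a transcriptional corepressor, was marked 132 kb upstream with 5606, 5543 and 3561 bp in WT and 3521, 3490 and 3323 bp in KO. All WT values were above all KO values there, though WT replicate 3 led KO replicate 1 by little.

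Several of the 25 genes encode proteins that bind or regulate actin. PALLD, which cross-links actin, had a domain 135 kb inside the gene with 5032, 5013 and 2895 bp in WT and 2409, 2891 and 2808 bp in KO, and another 335 kb inside with 2656, 2981 and 1959 bp in WT and 1806, 1606 and 1485 bp in KO. WT exceeded KO at both domains, at the first by a few bp between WT replicate 3 and KO replicate 2. MYO10, the myosin of filopodia, had 4150, 3905 and 2909 bp in WT and 2960, 2734 and 2953 bp in KO, which overlapped. TRIOBP, an actin-bundling protein, had 4410, 4760 and 2311 bp in WT and 2243, 2220 and 2183 bp in KO, a difference of 1612 bp between means that was 95.7 bp for WT replicate 3.

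ABLIM1, an actin-binding LIM protein, had 3 such domains called in all 6 libraries, and the widest of them by mean lay 26.2 kb upstream with 4070, 3467 and 2820 bp in WT and 2904, 1994 and 2043 bp in KO. FRMD4A, a scaffold of cell polarity, had 4, spread from 157 to 624 kb inside the gene. DLC1, a RhoGAP, had 2, and the wider measured 6651, 5074 and 2296 bp in WT and 2875, 2877 and 2211 bp in KO. SUN3, which is not one of these but a nuclear envelope protein, had 4144, 3954 and 2693 bp in WT and 2408, 2427 and 1662 bp in KO.

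The rest of the 25 were of mixed function. PDGFC, a platelet-derived growth factor, showed the largest difference among them, with 9259, 7477 and 2922 bp in WT and 1742, 1300 and 2219 bp in KO at an end 198 kb inside the gene whose transcripts have no start codon annotated. Its WT and KO libraries did not overlap, with means of 6553 ± 3268 and 1754 ± 460 bp (SD, n = 3 each), and WT replicate 3 stood 1168 bp above the KO mean. TXNRD1, a thioredoxin reductase, had 5182, 4894 and 3100 bp in WT and 3112, 3037 and 2677 bp in KO at 72.9 kb, with KO replicate 1 just above WT replicate 3.

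SEMA6B, a guidance ligand, had 6190, 6999 and 2681 bp in WT and 3134, 2671 and 2414 bp in KO. GRB10, an adaptor of the insulin receptor, had 4203, 4633 and 2456 bp in WT and 2186, 2282 and 1914 bp in KO at an end 9.79 kb upstream. IQCJ-SCHIP1, a read-through gene, was marked 491 kb inside with 6024, 6082 and 3526 bp in WT and 4936, 4911 and 3344 bp in KO. HJV, the iron regulator hemojuvelin, had 6840, 7273 and 2902 bp in WT and 4029, 4213 and 2685 bp in KO. The other genes of the 25 were ALPK2, BCAN, IQSEC1, KLHL5, CARD18, FAM107B and NAALADL2. Over the widest such promoter of each of the 25, the mean width ran from 2881 to 5370 bp, beside a median of 1689 bp over the 263 pairs of such a region and a gene. By position, 14 lay in introns, 9 upstream and 2 in exons, and 17 led to another start codon. At 5 of the 25 no transcript was coding, and at 6 a long non-coding RNA 5′ end lay within 1 kb. Over the 263 pairs these numbered 88 (33.5%) and 59 (22.4%). At regions near a long non-coding RNA end the mark cannot be assigned to a single transcript. WT exceeded KO without overlap at 10 of the 25, beside 24.4% of all 1788 alternative promoters. WT replicate 3 exceeded all 3 KO libraries at the same number, 10, beside 38.7%. All 25 were called in all 6 libraries, against 1057 of the 1788, and a region not called in every WT library cannot meet the first rule. The shares of all 1788 are therefore not a like base, and no excess is read from them.

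**Figure D2:**
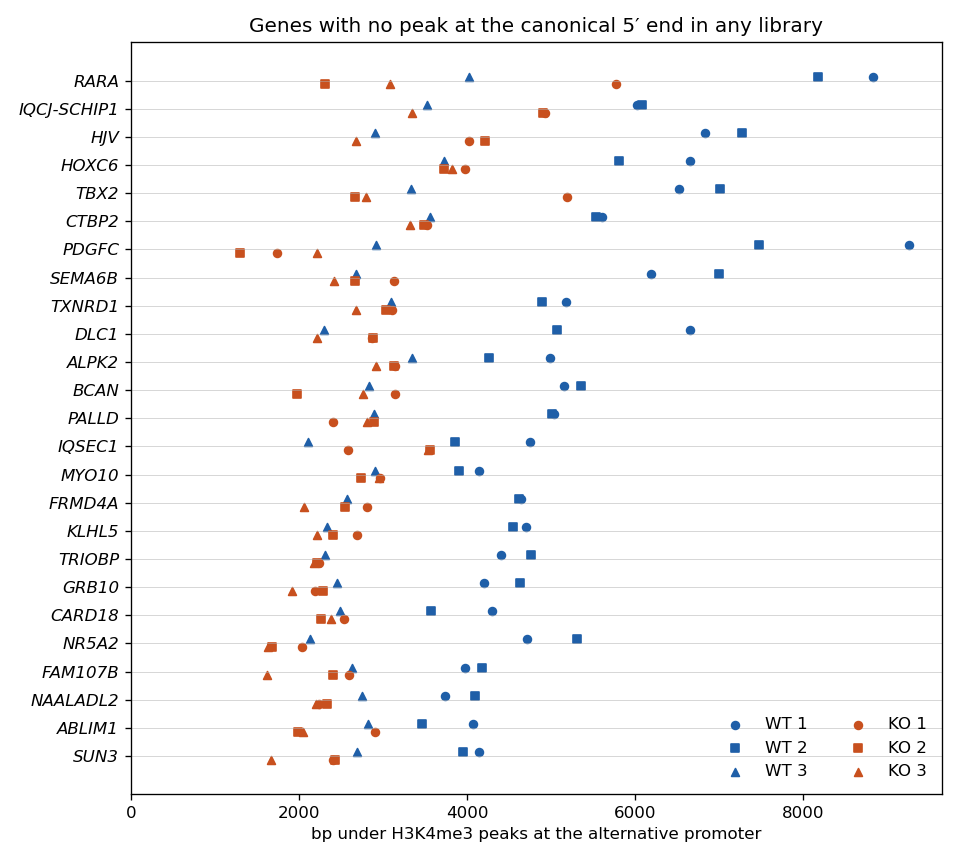
Width in bp of the H3K4me3 domain (x axis) in each of 6 libraries at the widest alternative promoter of the 25 genes, 1 row per gene, all with an unmarked canonical 5′ end. Blue symbols are WT and orange symbols KO; WT replicates 1 and 2 lie to the right in most rows, and WT replicate 3 lies among or near the KO libraries.

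Where both promoters were marked in all 6 libraries, the 10 genes taken for the largest lowest width were of mixed function. RUNX1, a Runt factor with a distal and a proximal promoter, had the widest domain at the 5′ end 162 kb inside the gene (chr21:34878769-34891498), with 11981, 10566 and 4713 bp in WT and 9421, 4888 and 5943 bp in KO. All 3 KO values exceeded WT replicate 3, and the genotypes overlapped. Within 1 kb of its canonical end 1689, 1737 and 1382 bp were under peaks in WT and 1168, 1078 and 1152 bp in KO. A second RUNX1 domain 955 kb upstream measured 5087, 2918 and 2258 bp in WT and 2154, 2174 and 1973 bp in KO.

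GSE1, a subunit of a demethylase complex, had 7134, 8444 and 5136 bp in WT and 5125, 4717 and 4201 bp in KO at an end 57.4 kb upstream. JMJD1C, a protein of the histone demethylase family, had 6653, 6930 and 4200 bp in WT and 4096, 3967 and 3852 bp in KO. SLC3A2, the heavy chain of amino acid transporters, had 6567, 6100 and 4952 bp in WT and 4012, 4168 and 3745 bp in KO, and WT replicate 3 stood 977 bp above the KO mean. SEPTIN9 had 5854, 5993 and 3612 bp in WT and 5765, 4182 and 3981 bp in KO, with KO replicate 1 close to the WT replicates 1 and 2. The others chosen by the same rule were SEC14L1, HOXC4, MKLN1, ZNF131 and KCTD2. Long non-coding RNA 5′ ends lay within 1 kb of the regions of SLC3A2 (26), MKLN1 (27), ZNF131 (3) and HOXC4 (2). The mark at these regions cannot be assigned to a single transcript.

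The canonical window had the higher median length under peaks in all 6 libraries. Over 719 pairs with both ends called in all 6 libraries, the median length under peaks within 1 kb of the alternative 5′ end was 1761, 1846 and 1384 bp in WT and 1377, 1234 and 1153 bp in KO. Around the canonical 5′ end it was 2001, 2001 and 1553 bp in WT and 1563, 1430 and 1376 bp in KO, where 2001 bp is the whole window. The alternative window held more than the canonical one in 25.9, 23.4 and 33.7% of pairs in WT and in 34.4, 34.4 and 34.1% in KO, so WT replicate 3 lay with the KO libraries. The remaining pairs include ties, as where both windows were full, so these shares do not show how often the canonical window held more.

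Few alternative promoters were called in one genotype alone. In all 3 WT and no KO library there were 7 (0.391%, beside 0.317% of all autosomal regions and 0.0929% of canonical regions), while 8 were called in every KO library and in none of the WT (0.447%, beside 0.281% and 0.0422%). These shares were close to the background of all regions, which is not given for the counts below over fewer libraries. The counts moved with single libraries, since a rule over fewer libraries is easier to meet: the WT-only count was 20 without KO replicate 1 and 11 to 15 without any one of the WT replicates or KO replicate 2, and the KO-only count was 22 without WT replicate 3 and 13 to 16 without WT replicate 1, KO replicate 2 or KO replicate 3.

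The 7 WT-only regions measured from 364 to 1815 bp in the libraries that called them. AHDC1, a DNA-binding protein gene, had 553, 1062 and 969 bp in the WT libraries at an intronic end (chr1:27568224-27569285). ALPL, the alkaline phosphatase of osteoblasts, had 1547, 569 and 1815 bp, and its canonical end was called in no library. CASP5, an inflammatory caspase, had 364, 1033 and 868 bp, also with no peak at the canonical end. The peaks of WT replicate 2 at ALPL and of WT replicate 1 at CASP5 lay within the merged region but not within 1 kb of the annotated end.

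NHSL1 had 971, 674 and 945 bp upstream of an unmarked canonical end. ERGIC1, a protein of the ER-Golgi intermediate compartment, had 469, 1266 and 1236 bp. EGF, the epidermal growth factor, had 611, 626 and 440 bp, while its canonical end was called in WT replicate 2 and KO replicates 2 and 3. ZBTB20 had 629, 553 and 530 bp beside a canonical end that was covered over its whole window in all 6 libraries. Among peaks with fold enrichment of at least 4, the WT-only regions of ALPL, NHSL1, ERGIC1 and ZBTB20 had no peak in any library. AHDC1, CASP5 and EGF kept differences between means of 861, 634 and 147 bp.

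The 8 KO-only regions measured from 244 to 1562 bp. AMZ1, a metalloprotease, had 1465, 1022 and 850 bp in KO replicates 1, 2 and 3, and a peak at the canonical end in KO replicate 1 alone. KCNIP2, a potassium channel partner, had 1171, 931 and 806 bp. MAD1L1, a spindle checkpoint protein, had 1562, 1054 and 314 bp, and DPP6, a second potassium channel partner, had 982, 513 and 635 bp with its canonical end unmarked. DPF1, a chromatin remodelling subunit, had 778, 510 and 457 bp, CDK18, a kinase, 282, 742 and 402 bp, FHL2, a LIM-domain cofactor, 274, 304 and 738 bp and CTSB, a lysosomal protease, 546, 244 and 483 bp. The canonical ends of KCNIP2, MAD1L1, DPF1, CDK18, FHL2 and CTSB were called in all 6 libraries. Among peaks with fold enrichment of at least 4, the KO-only regions of AMZ1, MAD1L1, DPF1, FHL2 and CTSB had no peak in any library. DPF1 already had none with −log10 q of at least 3. KCNIP2, DPP6 and CDK18 kept differences between means of -659, -498 and -134 bp with fold enrichment of at least 4.

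The largest width gaps were at regions called in both genotypes. MACF1, a linker of actin and microtubules, had 10381, 8344 and 7261 bp in WT and 4297, 2292 and 2039 bp in KO at an end 209 kb inside the gene (chr1:39407054-39417992). The lowest WT value exceeded the highest KO value by 2964 bp, the largest gap of any alternative promoter, and WT replicate 3 exceeded the KO mean by 4385 bp. MKLN1, muskelin, had 6845, 7009 and 5967 bp in WT and 4304, 3735 and 3566 bp in KO, a gap of 1663 bp, with WT replicate 3 at 2099 bp above the KO mean. In both genes WT replicate 3 sided with the other WT libraries. The MKLN1 region had 27 long non-coding RNA 5′ ends within 1 kb, so its mark cannot be assigned to a single transcript. The MACF1 region holds 2 annotated ends, and within 1 kb of the one nearest its middle 2001, 2001 and 1240 bp were under peaks in WT and none in KO, whose peaks came within 1 kb of the other end.

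CASP8, the initiator caspase of death receptor signalling, had 5004, 4669 and 2879 bp in WT and 1674, 1630 and 1492 bp in KO at an end 27.0 kb upstream (chr2:201232017-201237114), a gap of 1205 bp and a lead of WT replicate 3 over the KO mean of 1280 bp. Its canonical window held 672 and 315 bp under peaks in WT replicates 1 and 2 and none in the other 4 libraries. ZFHX3, a homeobox and zinc finger factor, had 8214, 7355 and 3329 bp in WT and 2056, 1932 and 1913 bp in KO, a gap of 1273 bp. HOXA3, a homeobox factor, had 4998, 6134 and 3538 bp in WT and 2362, 1961 and 1636 bp in KO, and B3GNT5, a glycosphingolipid glycosyltransferase, had 3139, 6826 and 2707 bp in WT and 586, 1557 and 612 bp in KO. Within 1 kb of the annotated B3GNT5 end, KO replicate 2 was the only KO library with a peak. Long non-coding RNA 5′ ends lay within 1 kb of the HOXA3 (4) and ZFHX3 (1) regions.

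In the reverse direction the gaps were smaller. Apart from AMZ1, KCNIP2, DPP6 and DPF1 above, CEACAM21, an adhesion molecule gene, had 674, 661 and 0 bp in WT and 2038, 1298 and 1726 bp in KO, a gap of 624 bp. This difference between means, -1242 bp, shrank to -234 bp among peaks with −log10 q of at least 3 and turned to 225 bp among peaks with fold enrichment of at least 4. A second DPP6 promoter 165 kb upstream had 602, 1664 and 0 bp in WT and 2211, 2035 and 2057 bp in KO, a gap of 371 bp. In both, WT replicate 3 was not called. These promoters were chosen for their gaps, and single regions were not tested.

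**Figure D3:**
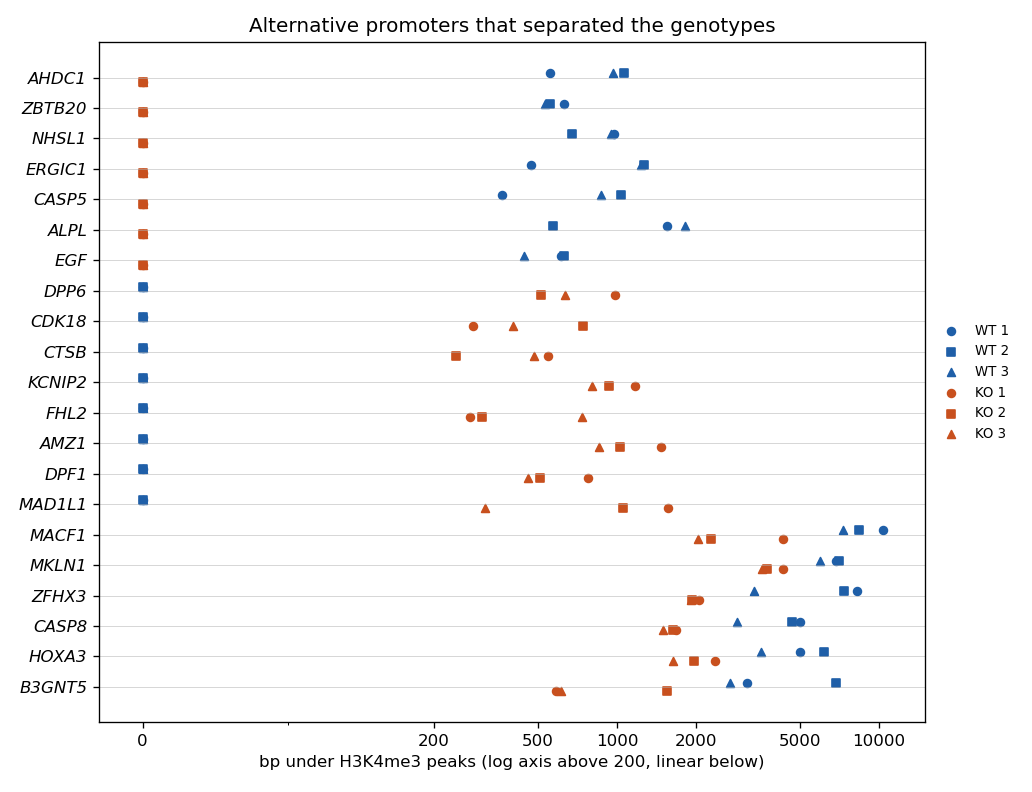
Base pairs under H3K4me3 peaks (x axis, linear below 200 and logarithmic above) at the 15 alternative promoters called in one genotype only and the 6 with the largest gap of WT over KO, 1 row per promoter. Blue symbols are WT and orange symbols KO, symbols at 0 were not called; MACF1 and MKLN1 show all 3 WT libraries far above all 3 KO libraries.

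In 1 gene the genotypes differed at the canonical end while the alternative promoter was called in all 6 libraries. CCL20, a chemokine named after its values were seen, had 1225, 1243 and 1009 bp in WT and 1012, 1202 and 1083 bp in KO at the alternative promoter 8.10 kb upstream. The canonical window held 1258, 1476 and 68 bp in WT and none in KO. The larger values came from WT replicates 1 and 2, the lists of the wider kind.

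Gene families known for alternative promoters were then read as lists. Among 39 transcription factors with promoter-specific isoforms, 23 had 33 alternative promoters. Of these 33, 18 were called in all 6 libraries (54.5%, beside 59.1% of all 1788). WT lay above KO without overlap at 7 (21.2%, beside 24.4% of all 1788). RUNX2, the osteoblast master factor, had 6698, 5768 and 5278 bp in WT and 4577, 3321 and 3317 bp in KO at an end 94.2 kb inside the gene, and its canonical end was called as well. SOX6 had 5475, 5940 and 4262 bp in WT and 4104, 3791 and 4129 bp in KO at 249 kb upstream.

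ERG and RUNX3 were marked only away from their canonical ends. ERG, an ETS factor, had 2552, 2557 and 1837 bp in WT and 1829, 1780 and 1595 bp in KO, and RUNX3 had 2151, 1676 and 2655 bp in WT and 2197, 1700 and 2404 bp in KO with no order by genotype. The internal MITF promoter, 24.3 kb downstream, was called in WT replicates 1 and 2 alone, with 1891 and 1587 bp.

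Cytoskeleton and adhesion genes had the most alternative promoters of these lists, 35 in 23 of 37 genes, and 23 were called in all 6 libraries (65.7%, beside 59.1% of all 1788). WT exceeded KO without overlap at 15 (42.9%, beside 24.4% of all 1788 and 27.1% of all autosomal regions). At 18 of the 35, WT replicate 3 alone exceeded all 3 KO libraries, beside 692 of all 1788 (38.7%). A region not called in every WT library cannot meet the first rule, and this list held a larger share called in all 6. The bases are therefore unlike. DST, a spectraplakin like MACF1, had 3 internal promoters, and the one 262 kb inside measured 6333, 5921 and 3691 bp in WT and 2811, 2549 and 2957 bp in KO. SPTBN1, a spectrin, had 5803, 5371 and 3604 bp in WT and 3970, 3484 and 2823 bp in KO 102 kb inside. LIMA1, an actin-bundling LIM protein, had 4670, 4479 and 3051 bp in WT and 3078, 2775 and 2667 bp in KO.

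Of this list, 5 genes were marked only at the alternative promoter: TPM3, MAP4, ANK2, ANK3 and PALLD. TPM3, a tropomyosin, had 3439, 3347 and 2252 bp in WT and 2541, 1784 and 1613 bp in KO at 9.06 kb. MAP4, a microtubule-binding protein, had 4229, 3942 and 2050 bp in WT and 2005, 1640 and 1925 bp in KO at 72.4 kb upstream. ANK2, an ankyrin, had 2369, 2658 and 1401 bp in WT and 1411, 1386 and 1033 bp in KO. ANK3, a second ankyrin, had 2 upstream domains called in all 6 libraries, 183 and 343 kb from the canonical end.

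**Figure D4:**
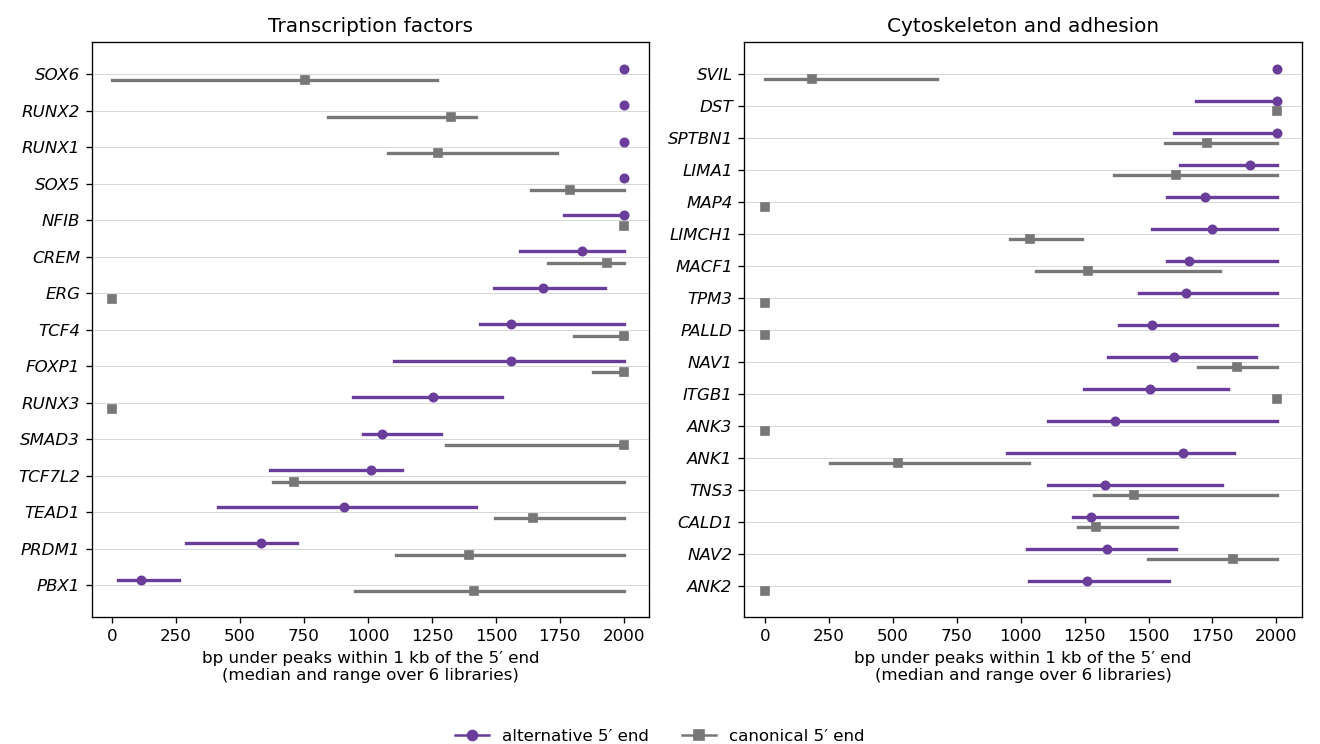
Base pairs under H3K4me3 peaks within 1 kb of the alternative (violet) and of the canonical (grey) 5′ end, as the median and range over 6 libraries, for listed transcription factors (left) and cytoskeletal genes (right) with an alternative promoter called in all 6. Grey squares at 0 mark genes such as ERG, RUNX3, MAP4, TPM3, PALLD, ANK2 and ANK3, whose canonical end was called in no library.

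In the signalling and chromatin lists, the share called in all 6 libraries lay above the 59.1% of all 1788 alternative promoters. The 24.4% of all 1788 with WT above KO is therefore not a like base for them. Cyclic nucleotide and small GTPase signalling had 23 in 16 of 29 genes, 19 of them in all 6 (82.6%) and 5 with WT above KO (21.7%, beside 24.4% of all 1788). PDE4D, a cAMP phosphodiesterase of many promoters, had 4, of which 2 were called in all 6, and GNAS, the imprinted G protein locus, had 2688, 2853 and 1630 bp in WT and 1609, 1251 and 1210 bp in KO at 38.7 kb upstream, although a peak came within 1 kb of an annotated GNAS end in WT replicate 2 alone. Growth factor and kinase signalling had 14 in 9 of 31 genes, 10 of them in all 6 (71.4%) and 4 with WT above KO (28.6%, beside the same 24.4%). LTBP1 was among these 4, at 3206, 2756 and 2680 bp in WT and 2260, 2112 and 2083 bp in KO. Chromatin regulators had 13 in 10 of 24 genes, 12 of them in all 6 (92.3%) and 4 with WT above KO (30.8%, beside the same 24.4%). KDM2A, a demethylase with a short isoform, had 3300, 3534 and 1895 bp in WT and 1806, 1776 and 1695 bp in KO at 121 kb. SMARCA2, a remodelling ATPase, had 2020, 2001 and 1613 bp in WT and 1611, 1237 and 1286 bp in KO at 143 kb. In none of the lists did any promoter have all KO widths above all WT widths.

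Of 69 interferon and antigen presentation genes, 8 had a marked alternative promoter (11.6%, beside 7.86% of all protein-coding genes), among them ADAR, CASP8, SP140L, HLA-B, CFLAR, IFI16 and IL15. Of the 8 regions, 5 were called in all 6 libraries (62.5%, beside 59.1% of all 1788). ADAR, an RNA-editing enzyme, had 2203, 2433 and 1629 bp in WT and 1439, 1269 and 1371 bp in KO at 19.4 kb upstream. WT lay above KO without overlap at 4 of the 8 (beside 24.4% of all 1788), ADAR, CASP8 and SP140L among them, while HLA-B had 514, 605 and 291 bp in WT and 563, 552 and 442 bp in KO. Multimapping reads had been removed, which limits the values at HLA-B. IFI16 and IL15 were each called in 1 library. The 5 ZBTB48 targets listed for the study, CIITA, MTFP1, VWA5A, PXMP2 and SNX15, had no region that met the definition. The definition leaves out regions within 5 kb of a canonical 5′ end, so this does not mean that their promoters were unmarked. At CIITA the study reported H3K4me3 over the B-cell-specific promoter, reaching to a further promoter, in WT but not in KO clones.

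The marked alternative promoters differed from the unmarked ones in CpG content, which the choice of regions did not use. The ratio of observed to expected CpG within 500 bp of the 5′ end had a median of 0.595 at alternative promoters called in all 6 libraries, 0.282 at those called in 1 library and 0.242 at 32157 annotated alternative ends with no peak. At canonical ends called in all 6 it was 0.793. A ratio of at least 0.6 was found at 49.4% of the alternative promoters called in all 6, 5.03% of those called in 1 library, 1.69% of the unmarked alternative ends and 90.2% of the canonical ends called in all 6. The median GC content of these groups was 58.6, 50.1, 43.7 and 64.3%. The 259 alternative promoters called in all 6 libraries whose canonical end was called in no library had a median ratio of 0.643. The values are descriptions, since 5′ ends of 1 gene or of a duplicated family share sequence.

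**Figure D5:**
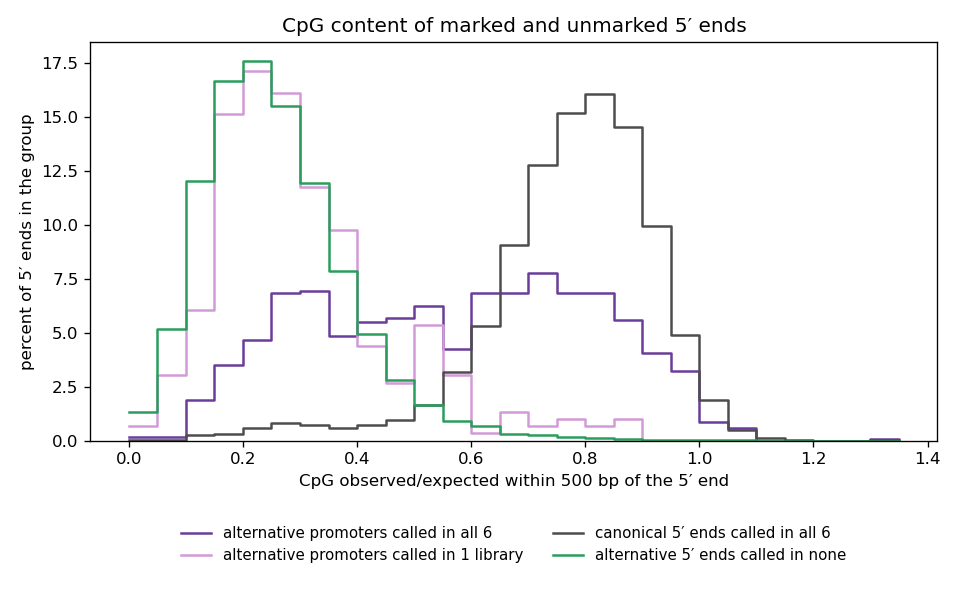
Distribution of the ratio of observed to expected CpG within 500 bp of the 5′ end (x axis) as the percentage of 5′ ends in each group (y axis) for alternative promoters called in all 6 libraries or in 1, canonical 5′ ends called in all 6 and alternative 5′ ends called in none. Alternative promoters called in all 6 spread over low and high ratios (median 0.595), between the unmarked alternative ends (0.242) and the canonical ends (0.793).

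Short motifs were counted on both strands of the 150 bases upstream. The GC-box GGGCGG was held by 37.6% of the alternative promoters called in all 6 libraries, by 66.8% of the canonical ends called in all 6, by 52.9% of all canonical ends and by 4.99% of the unmarked alternative ends. The TATA-box TATAAA was held by 2.93, 2.82, 6.76 and 12.4% of the same groups, and CCAAT by 16.1, 27.0, 26.2 and 18.7%. The E-box CACGTG was found in 4.35, 6.55, 5.72 and 2.16%, the palindrome TTCNNNGAA in 3.41, 2.58, 3.21 and 4.73%, and the cAMP-response element TGACGTCA in 0.473, 2.70, 2.08 and 0.131%. The telomeric repeat unit TTAGGG, bound by ZBTB48 at telomeres, was held by 3.50, 3.45, 3.90 and 4.79%. None of these matches shows that a factor binds.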

How the data were processed

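H3K4me3 ChIP-seq peak lists of 3 WT and 3 ZBTB48 KO U2OS clones treated with IFNγ were analysed, and samples were grouped by genotype and replicate number in their labels. Per the study's methods and the submitters' processing notes, the authors used Trimmomatic for trimming and Bowtie2 2.3.5.1 for alignment to GRCh38. Duplicates and reads without a unique position were discarded, and MACS2 2.1.1.2 called broad peaks for each library. Whether an input was given to the caller for each list is not stated in the sources used here. DiffBind 3.2.1 and deepTools 3.5.0 are also named. The authors tested differences on reads, which peak lists do not allow.

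Each deposited list gives, for every peak, a score, a ratio named fold enrichment, and p and q as −log10. The score deposited by the authors is a display value and was not used. The deposited fold enrichment is the ratio of ChIP signal over local background, averaged over a broad peak by the authors, as are the deposited −log10 p and −log10 q values. They served only to rank or filter peaks within a list. Depth is unknown here, and no counting interval was computed.

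Autosomal peaks were merged across the 6 lists when they overlapped or touched, and positions are 1-based. An overlap of at least 1 bp with a peak of a library counted as a call, and the width of a region was the number of bp under that library's peaks. Gene models were GENCODE release 44. The alternative promoters, the gene lists and the tests were chosen with earlier results of these data known. Values per library were compared by two-sided exact permutation over the 20 assignments (3 against 3, smallest p 0.1) or by exact sign flips over 6 libraries, and Benjamini-Hochberg adjustment covered all 7 tests. Alternatives were stricter peak thresholds (−log10 q of at least 3, fold of at least 4), equal peak numbers, 50% overlap, merging within 1000 bp, protein-coding transcripts only, a 500 bp window, a 10 kb distance, calls in 2 of 3 libraries, WT replicate 3 alone, the replicate block and omission of each library. The same-numbered WT and KO libraries did not deviate together over the regions (r = -0.217, 0.126 and -0.0822), so the numbers were not taken as pairs.

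Genes named were the 25 with the widest alternative promoter called in all 6 libraries and no canonical peak in any, the 10 with both promoters called and the largest lowest width, up to 12 regions per direction called in one genotype only, the 6 largest width gaps in each direction, and genes of the lists. The sequences printed are from the first 6 of the 25 genes and the first 3 regions of each genotype, off chromosome 8 and with no annotated exon in the stretch. Some listed genes, and some stretches that this rule chose, are not reported here. From simulated lists, 1500 of 1500 regions were found, with 150 of 150 WT-only, 100 of 100 KO-only and 150 of 150 narrowed ones recovered. The simulated peaks were clear and lay far from canonical ends, so this checks the code alone. It does not cover weak peaks or lists that differ in kind. Python 3.11.15, numpy 2.4.6, scipy 1.17.1, pandas 2.3.3 and matplotlib 3.10.9 were used.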

Additional observations from a re-analysis of the deposited data

How the results depend on the processing

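The difference in calls between genotypes, -6.67 regions, turned positive with other settings: 23.7 with −log10 q of at least 3, 119 with fold enrichment of at least 4, 309 with at least 50% of a region covered and 45 for WT replicate 3 against the KO libraries. The difference in called share against canonical regions likewise became 1.22 with −log10 q of at least 3 and 1.88 for WT replicate 3, and it grew to -17.1 with 50% coverage (exact permutation p = 0.1). Coverage was taken over the merged region, which the wider lists largely set, so calls under this rule depend on width. The difference in genes with only the alternative promoter marked became 55.3 with 50% coverage, -64 with fold of at least 4 (exact permutation p = 0.3) and -11 with equal peak numbers (exact permutation p = 0.1). The mean gap in fold percentile stayed negative but no longer passed 0.05 unadjusted under several settings. It was -10.9 with −log10 q of at least 3, -8.69 with fold of at least 4, -12.5 with an equal number of peaks per list and -11.7 with protein-coding transcripts only. Under each of these the 6 libraries no longer shared 1 sign (exact sign-flip permutation p = 0.25, 0.5, 0.156 and 0.0938). Over WT replicate 3 and the KO libraries the mean gap was -6.61, and the width difference to canonical regions was -480 bp. With 4 or 5 libraries the sign-flip test cannot reach 0.05.

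The WT-only count became 4 with an equal number of peaks, 51 with 50% coverage, 2 with protein-coding transcripts only, 84 for WT replicate 3 alone and 25 when 2 of 3 libraries sufficed. The KO-only count became 4 with −log10 q of at least 3, 3 with fold of at least 4, 38 for WT replicate 3 alone and 28 when 2 of 3 sufficed. Regions with every WT width above every KO width numbered 700 for WT replicate 3 alone. Shares over all autosomal regions are not given for these counts, so they are not compared with the background. The cause of these shifts was not tested. Merging within 1000 bp, a 500 bp window and a 10 kb distance changed neither the direction nor the side of the threshold of any comparison. Of 70 named promoters, 52, 9 and 55 kept the same pattern of calls over the 6 libraries and 69, 59 and 70 their direction with −log10 q of at least 3, fold of at least 4 and equal peak numbers. Directions turned at CEACAM21 (225 bp) and at the second IQCJ-SCHIP1 promoter (-31.7 to 543 bp), both with fold of at least 4. Leaving out 1 library at a time, the difference in calls ran from -35.8 to 46.2, the called share from -2.02 to 1.89, the width difference from 464 to 794.5 bp, the length from 0.725 to 1.19 Mb and the genes with only the alternative promoter from -19.2 to -0.167. Over the same omissions the width against canonical regions ran from -761.7 to -611.7 bp, the fold percentile from -17.4 to -11.3, the WT-only count from 7 to 20, the KO-only count from 12 to 22 and the count of WT above KO from 460 to 876. With the replicate number as a block, the differences were as before (-6.67 regions, 584 bp, 0.881 Mb, -11.3 genes and -0.663 points) and changed no call, the smallest exact p being 0.25.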
